A study of Drosophila melanogaster with 6 samples.

Results

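Genes for yolk and eggshell proteins were followed in tagged RNA from whole Drosophila melanogaster embryos. The 8 genes Yp1, Yp2, Yp3, Vm26Aa, Vm26Ab, Vm34Ca, psd and Cp36 were chosen by name, as genes whose products are made in adult females. They are 8 of the 13309 genes that could be named on the arrays, and they have 12 of the 32162 probes and 15 spots on each array. The embryos were of stage 12 to 15, of the strain UAS-T.g.UPRT (no GAL4), with a genotype labelled wildtype, and no age was given. The strain carries the UPRT transgene without a driver, and 4-thiouridine was used, which needs no UPRT and so can tag RNA in any cell. All embryos received a 1-hour pulse of 1 mM 4-thiouridine at 30 degrees. In the UO series (uridine only) the chase held 10 mM uridine, and in the U+actD series it also held actinomycin D, which blocks transcription. The pulse, the 1-hour chase and the 3-hour chase of each series had 1 single-channel array apiece, 6 in all, and an array held RNA pooled from several samples.

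Yolk proteins are made by the fat body and the ovarian follicle cells of adult flies, secreted, and taken up by the growing oocyte as food for the embryo. Follicle cells then lay down the eggshell from the inside outwards, first the vitelline membrane and after it the chorion. Both programmes end before the egg is laid, so an embryo inherits the proteins and does not need the transcripts. The genes therefore show how a tagged-RNA array reads transcripts that embryos of this stage are not known to need.

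The members fall into 3 roles. Yp1, Yp2 and Yp3 encode the yolk proteins. Vm26Aa, Vm26Ab, Vm34Ca and psd (palisade) encode proteins of the vitelline membrane. Cp36 encodes a major protein of the chorion. In the RefSeq annotation of assembly Release 6 plus ISO1 MT, Yp2 and Yp1 were adjacent on chromosome X, Yp3 and Cp36 also lay on X, and Cp36 stood between the chorion genes Cp7Fc and Cp38. On 2L, Vm26Ab, Vm26Ac, Vm26Aa and psd followed each other with no other coding gene between them, and Vm34Ca lay elsewhere on that arm. The arrays gave Yp2 and psd 2 probes, Vm34Ca 3, and each of the others 1. Yp3, Vm26Aa and 1 Vm34Ca probe were printed in 2 spots, whose mean was used.

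The arrays differed in depth between the series. Net signal is the mean foreground of a spot minus its local background, and its median over all probes was 56, 71 and 50 in UO (pulse, 1-hour chase and 3-hour chase, the order used throughout) against 1276, 489 and 162 in U+actD. A probe was called above background when it exceeded the 95th percentile of the 153 (-)3xSLv1 negative control spots of its own array. For net signal that threshold was 51, 54 and 50 in UO and 354, 128 and 108 in U+actD. The scanner recorded a local background of 0 at 51.7%, 46.0% and 54.7% of UO spots and at no U+actD spot. There the net signal equals the foreground, so a dim UO spot passed or failed with its background, and 10 of the 11 member spots above the net threshold on UO arrays had a background of 0. Calls on the foreground alone, against its own 95th percentile (55.0, 64.4 and 54.0 on UO, 506, 310 and 283 on U+actD), are therefore given beside the net calls. All 10 of 10 genes listed for embryonic tissues, such as elav of neurons and Mef2 and Mhc of muscle, were above the threshold on all 6 arrays. No member spot had a saturated pixel.

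Members stood above the negative controls mainly in U+actD. By net signal psd alone did so on every array, and by foreground psd and Yp2 did. On the UO pulse array 3 of 8 members were above the net threshold (Yp2, Vm34Ca and psd), where 70.0% of all genes were. On the UO 1-hour chase array 3 members passed (Yp3, Vm34Ca and psd) against 72.1% of genes, and on the UO 3-hour chase array 1 member, psd, against 63.3%. On the U+actD pulse array 5 members passed (Yp2, Yp3, Vm26Aa, Vm34Ca and psd) against 80.8% of genes. On the U+actD 1-hour chase array 7 passed, all but Vm26Ab, against 87.3%, and on the U+actD 3-hour chase array 6 passed, all but Yp1 and Cp36, against 75.2%. The share of members stood below that of all genes on the 3 UO arrays and on the U+actD pulse array, and about level with it on both U+actD chase arrays. With the foreground, 4, 3 and 3 members passed in UO (74.8%, 74.3% and 67.5% of genes) and 5, 7 and 8 in U+actD (82.6%, 87.3% and 78.1%). Calls were also made against the brightest negative control spot of each array in place of the percentile. By that rule psd was the 1 member left on each U+actD array, against 18.5%, 48.0% and 49.5% of genes. The brightest control of the U+actD pulse array read 23861. On the UO 1-hour chase array psd and Yp3 were left, against 64.5% of genes. No member was left on the UO pulse and 3-hour chase arrays, against 46.1% and 50.8%.

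**Figure D1:**
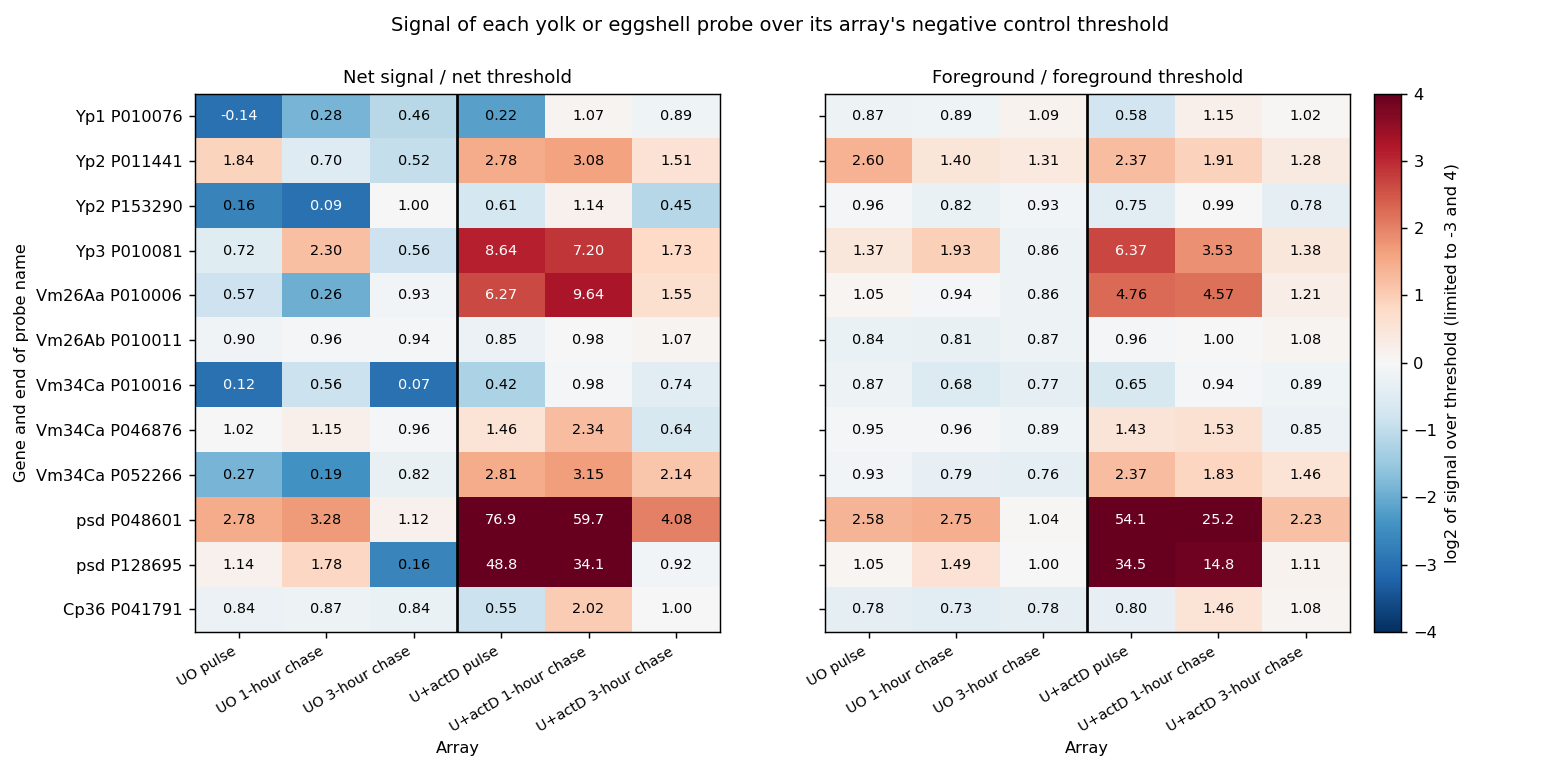
Signal of the 12 probes (rows, by gene and the end of the probe name) on the 6 arrays (columns), divided by that array's negative control threshold, for net signal on the left and foreground on the right. The printed number is the ratio, colour is its log2, and ratios above 1 are above the threshold. The psd probe A_09_P048601 reached 76.9 times the net threshold on the U+actD pulse array and 1.12 times on the UO 3-hour chase array.

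Of the vitelline membrane genes, psd gave by far the clearest signal over its threshold. It is needed for a sound vitelline membrane. Its probe A_09_P048601 read a net signal of 142, 177 and 56 in UO and 27210, 7667 and 441 in U+actD. Its second probe, A_09_P128695, read 58, 96 and 8 in UO and 17267, 4375 and 100 in U+actD. Both probes were highest at the U+actD pulse and lower at each chase there, and the second was below the threshold of 108 at the 3-hour chase. In UO neither probe was below its pulse at the 1-hour chase before scaling, and at the 3-hour chase the first probe lay just above the threshold of 50, with 3 of 153 negative controls reaching it, and the second below it, with 107 reaching it. At the U+actD pulse no negative control spot reached the first probe and 1 reached the second.

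Vm26Aa, the neighbour of psd and a structural protein of the vitelline membrane, was above the threshold on all 3 U+actD arrays and on no UO array by net signal, and by foreground on the UO pulse array too. It read 2218, 1238 and 168 in U+actD, against 29, 14 and 46.5 in UO. The 2 spots behind the U+actD pulse value read 1675 and 2761, and those behind the 3-hour value 115 and 221, so repeated spots of 1 array differed by up to 1.92 times there. Vm26Ab, which encodes a further vitelline membrane protein, stayed at background, with 46, 52 and 47 in UO and 300, 126 and 116 in U+actD, where the last value alone passed its threshold. Vm26Ac, between them on the chromosome and not a member, read 414, 297 and 106 in U+actD and 15, 17 and 9 in UO. Its U+actD pulse and 1-hour chase values were above the threshold, and it was named after its values had been seen.

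The 3 probes of Vm34Ca, which encodes another vitelline membrane protein, did not read alike. A_09_P052266 read 993, 405 and 232 in U+actD, above the threshold on each array, and 14, 10 and 41 in UO, below it on each. A_09_P046876 read 517, 300 and 69 in U+actD and 52, 62 and 48 in UO. It passed the net threshold on 2 UO arrays at spots without a recorded background, and on none by foreground. A_09_P010016 read 148, 126 and 80.0 in U+actD and 6, 30 and 3.5 in UO, with no array above the threshold.

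Among the yolk proteins, Yp3 had the clearest signal over its threshold and Yp1 was at background. The probe of Yp3 read 3058, 924 and 187 in U+actD, above the threshold on each array. In UO it read 36.5, 124 and 28.0 and passed at the 1-hour chase alone, where its 2 spots read 87 and 161, and by foreground it passed at the pulse as well. Yp2 was read at 984, 396 and 163 in U+actD by A_09_P011441, all above the threshold, and at 94, 38 and 26 in UO, where the pulse alone passed by net signal and all 3 arrays passed by foreground. Its other probe, A_09_P153290, read 217, 146 and 49 in U+actD and 8, 5 and 50 in UO, and passed on 1 array, the U+actD 1-hour chase. Yp1, although adjacent to Yp2 in the genome, read -7, 15 and 23 in UO and 79, 138 and 96 in U+actD, and passed on 1 array by net signal, again the U+actD 1-hour chase, and on 3 by foreground, the UO 3-hour chase and both U+actD chases.

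Cp36, the chorion gene, read 43, 47 and 42 in UO and 196, 260 and 108 in U+actD. It passed at the U+actD 1-hour chase alone by net signal and at both U+actD chases by foreground.

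Signals over the chase were put on the scale of the Agilent spike-in transcripts, which were added to the tagged RNA before labelling, and values under the threshold were set to it. The question asked of the chase is how fast tagged transcripts were lost, and the half-life is the time the fitted signal takes to drop to 50% of its start. Because the samples are bulk RNA, fewer cells that hold a transcript and less of it per cell cannot be told apart. In U+actD, psd was at 21.8% of its pulse signal at the 1-hour chase and at 1.02% at the 3-hour chase, an upper limit because 1 of its 2 probes was then at the threshold. That is a log2 change of -2.20 and then -6.62, with a half-life of at most 27.2 minutes. The median gene changed by -1.84 and -3.16. Over the 6812 genes with a falling fit and an adjusted R2 of at least 0.75, the median half-life was 54.3 minutes. Of 9820 genes 7 fell more than psd at the 3-hour chase, 0.0713%, with 15 doing so when no floor was set and 20 with the brightest probe of each gene, where psd changed by -5.94. The first probe ended 61.2-fold below its pulse and the second at least 158-fold, since it was then under the threshold.

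Yp3 was at 24.6% and 6.16% in U+actD, a log2 change of -2.02 and -4.02 and a half-life of 46.5 minutes, and 15.3% of genes fell more at the 3-hour chase. Yp2 was at 32.8% and 16.7%, a half-life of 74.3 minutes, and 70.6% of genes fell more. With a pulse of 984 and a 3-hour threshold of 108, Yp2 could not have shown a fall far beyond that of the median gene. Its rank carries that limit. Vm34Ca, from A_09_P046876, was at 47.3% at the 1-hour chase and under its threshold at the 3-hour chase, a fall of at least 4.74-fold and a half-life of at most 82.8 minutes. Its probe A_09_P052266 did not pass the filter for the test below but was above the threshold on every U+actD array. That probe was 3.01-fold below its pulse at the 1-hour chase and 4.25-fold at the 3-hour chase, and neither fold is a limit. Vm26Aa, which did not pass the filter for the test below, was at 45.5% and 7.63%, a half-life of 48.2 minutes. The order of half-lives was psd, Yp3, Vm26Aa and Yp2, with 1 array behind each point and so no error from which neighbours could be separated. Vm34Ca was not placed in it, since the half-life from A_09_P046876 is an upper limit (62.7 minutes with no floor) and none was fitted to A_09_P052266 alone. The threshold itself changed by -1.76 and -1.70 on the log2 scale, so Yp1, Vm26Ab and Cp36, which were at background at the pulse, have no fold.

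**Figure D2:**
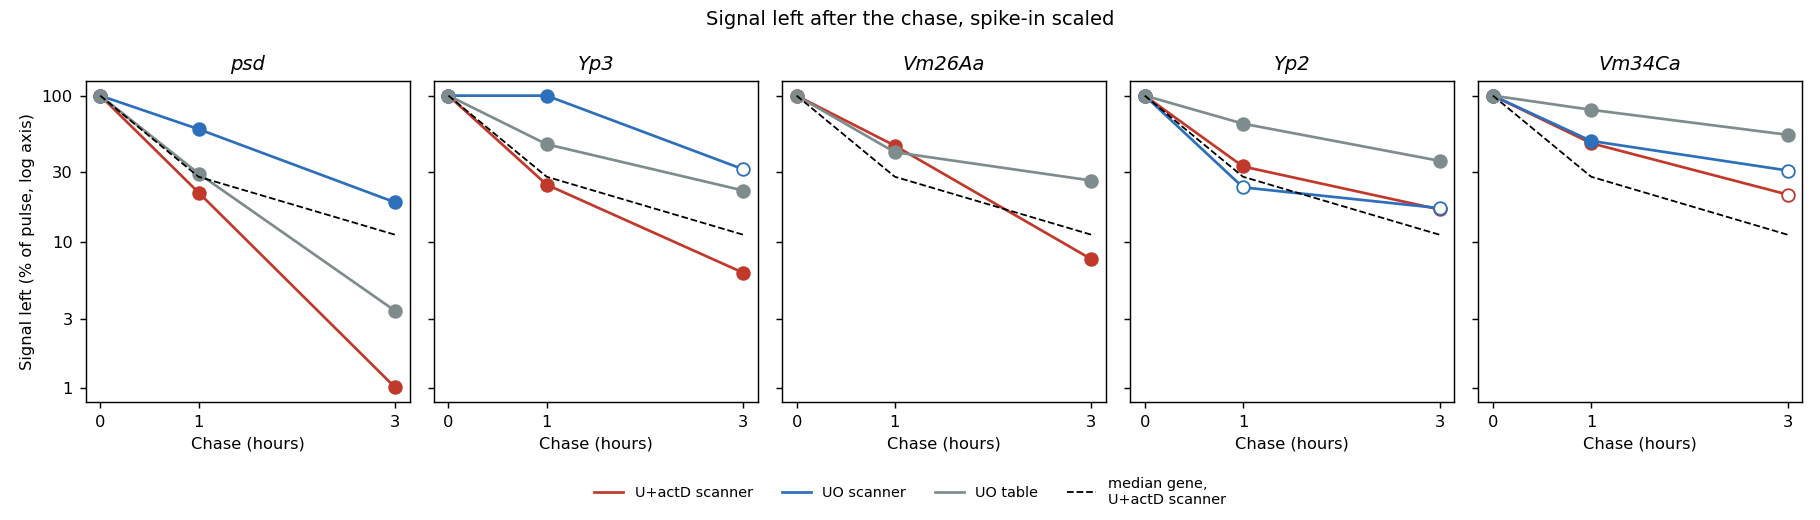
Signal left as a percentage of the pulse (log axis) against hours of chase, 1 array per point, for 5 members in the U+actD scanner files (red), the UO scanner files (blue) and the UO columns of the authors' table (grey), with the median gene of U+actD dashed. Open points are at the negative control threshold and are upper limits of the signal. In U+actD psd ended at 1.02% and the median gene at 11.2%, and Vm26Aa at background in the UO scanner files is not drawn there. Vm34Ca is read by a different probe in the table than in the scanner files.

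In the UO scanner files the members were too near background for their loss to be followed. Of the members tested, psd alone was above the net threshold at the UO 3-hour chase, on 1 of its 2 probes. That probe ended 7.92-fold below its pulse. The mean of psd over both probes changed by -0.76 and -2.42 on the log2 scale with a half-life of at most 74.0 minutes. The median gene of UO changed by -0.67 and -2.80. Yp2 ended at least 5.87-fold below its pulse. The UO threshold itself changed by -1.20 and -1.67, and the UO values of Yp3 and Vm34Ca at the 3-hour chase were that threshold.

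The authors' table holds values for 5 of the 12 member probes, of psd (A_09_P048601), Yp3, Vm26Aa, Yp2 and Vm34Ca (A_09_P052266), and none for Yp1, Vm26Ab and Cp36. Its U+actD columns are the scanner signals times a factor per array. Its UO columns are not the UO scanner signals, and which of them holds the arrays of the labels was not settled, so both are given. In the UO columns psd read 11106, 3262 and 376 at the pulse, 1-hour chase and 3-hour chase, Yp3 819, 381 and 184, Vm26Aa 833, 342 and 219, Yp2 499, 321 and 179, and Vm34Ca 344, 276 and 186. All 5 were lower at each chase. On this source psd was at 29.4% and 3.39%, a log2 change of -1.77 and -4.88 and a half-life of 37.1 minutes. The median gene changed by -0.58 and -2.31. Over the 6348 genes with a falling fit and an adjusted R2 of at least 0.75, the median half-life was 72.5 minutes. At the 3-hour chase 1.17% of 7931 genes fell more than psd. Half-lives were 86.9 minutes for Yp3, 124 minutes for Yp2 and 204 minutes for Vm34Ca, read here by another probe than in the scanner files, and Vm26Aa had too poor a fit for one (adjusted R2 of 0.72). No negative control threshold was applied to this source. The 3-hour values of Yp2, Yp3 and Vm34Ca lay close together, and whether they were at background was not tested. In the UO scanner files this Vm34Ca probe was below the threshold on each array. These 3 half-lives may therefore be limits.

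**Figure D3:**
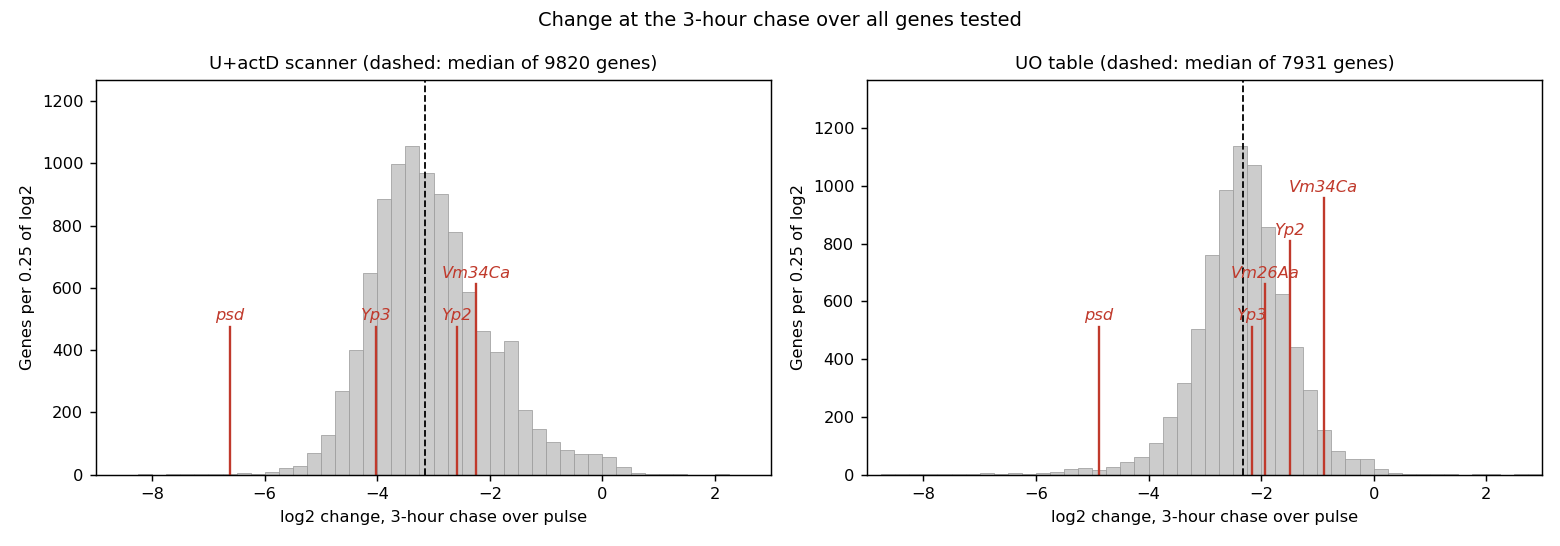
Histograms of the log2 change from the pulse to the 3-hour chase over all genes tested (bars, genes per 0.25 of log2) in the U+actD scanner files (left, 9820 genes) and the UO columns of the authors' table (right, 7931 genes), with members marked by red lines whose heights carry no meaning and the median gene dashed. In both panels psd lies in the far left tail, at -6.62 and -4.88, and Vm34Ca lies in the right tail of the right panel, at -0.89, where 96.1% of genes fell more. Whether that Vm34Ca value was at background was not tested.

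Changes common to both series were tested with limma over all genes, with the series and the time point in the model. A probe was kept if, at 1 or more time points, the arrays of both series put it above the net threshold, which 4 members passed (psd, Yp3, Yp2 and Vm34Ca through A_09_P046876) and 4 did not (Yp1, Vm26Aa, Vm26Ab and Cp36). At the 3-hour chase 98.5% of the 9820 genes tested were lower than at the pulse, and so were all 4 members. The limma log2 change was -4.52 ± 0.71 (SE, adjusted p = 4.9e-08) for psd, -2.85 ± 0.71 (adjusted p = 9.3e-05) for Yp3, -2.57 ± 0.71 (adjusted p = 0.00038) for Yp2 and -1.97 ± 0.71 (adjusted p = 0.0058) for Vm34Ca. The SE of 0.71 was the same for all 4, a value limma shared over genes and not a member's own. The series themselves gave psd -6.62 in U+actD and -2.42 in UO. In UO, Yp3 was at the threshold at the pulse and at the 3-hour chase. Its UO change of -1.67 is that of the threshold, and its UO part in this and the next tests carries no measured loss. Vm34Ca was at the threshold at the 3-hour chase of both series, so its change is a lower limit of the loss. Yp2 was at the UO threshold at both chases, and 1 psd probe was at the threshold at both 3-hour chases. Their changes there are lower limits of the loss too. The median gene changed by -2.99, so that loss was the rule for tagged RNA here and the 4 calls stand at the level of the background. Without the U+actD 3-hour chase array the limma change was -2.78 for psd and -1.71 for Vm34Ca, which was no longer called (adjusted p = 0.089). Yp3 stood at -1.75 when the pulse array of U+actD was left out. Over all arrays left out in turn the change ran from -6.26 to -2.78 for psd and from -3.94 to -1.75 for Yp3. With no term for the series limma called no member (adjusted p from 0.46 to 0.51). Scaled by the 75th percentile in place of spike-ins, no gene passed and the median gene changed by 0.32. At the 1-hour chase 0.458% of genes were lower and none of the 4 members was, with limma changes from -1.84 for Yp2 to -1.01 for Yp3 and adjusted p-values from 0.16 to 0.21.

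Relative to the median gene of each array, no gene passed limma's test at the 3-hour chase (0%), though 63 lay lower and 1072 higher before adjustment (p under 0.05). The relative change was -1.38 ± 0.91 for psd (SE, adjusted p = 0.66), and 0.29 ± 0.53 for Yp3, 0.57 ± 0.53 for Yp2 and 1.17 ± 0.49 for Vm34Ca, with limma adjusted p-values from 0.43 to 0.93. The Vm34Ca value is an upper limit set by the threshold, and in U+actD alone it was 1.11 with the floor and 0.46 without it. The Yp2 value also rests on the threshold in UO. The series parted on psd, at -3.27 relative to the median gene in U+actD and 0.50 in the UO scanner files, while the UO columns of the table gave -2.48. The UO scanner value is set by the threshold, and it was -0.78 with no floor and -0.40 with a background set by the negative controls. With the authors' table for both series, limma called psd lower than the median gene at the 3-hour chase, by -2.49 ± 0.36 (adjusted p = 0.039), 1 of 5 members tested where 0.126% of 7931 genes were called lower. Without the UO pulse array, which leaves the pulse to U+actD alone, the scanner value of psd was -2.34. Without the U+actD 3-hour chase array its sign turned to 0.48. At the 1-hour chase no gene passed limma's relative test, with 30 lower and 142 higher unadjusted, and none of the 4 members lay more than 0.64 from the median gene.

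The difference between the series was tested with limma as the slope over chase hours in U+actD minus that in UO, after the overall change of both had been equalised. For psd it was -1.37 ± 0.25 on the log2 scale per hour (SE, adjusted p = 0.014), 1 of 4 members where 1.45% of genes were called steeper in U+actD. For Yp3 it was -0.67 ± 0.24 (limma adjusted p = 0.12), and for Vm34Ca and Yp2 -0.16 and -0.02. The psd call rests on UO scanner values that end just above the threshold for 1 probe and below it for the other. At the pulse psd stood at 90.8 in UO and 21676 in U+actD. The spike-in scaled threshold of the UO 3-hour chase was 16.0, so a UO slope much steeper than the one seen could not have been read. The call cannot tell faster loss in U+actD from that limit. With the table's UO columns the limma slope difference was -0.10 ± 0.23 (adjusted p = 0.93), with 0.555% of genes called steeper in U+actD and 0 of 5 members, and both series then gave psd a relative change of -2.48 to -2.50 at the 3-hour chase.

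**Figure D4:**
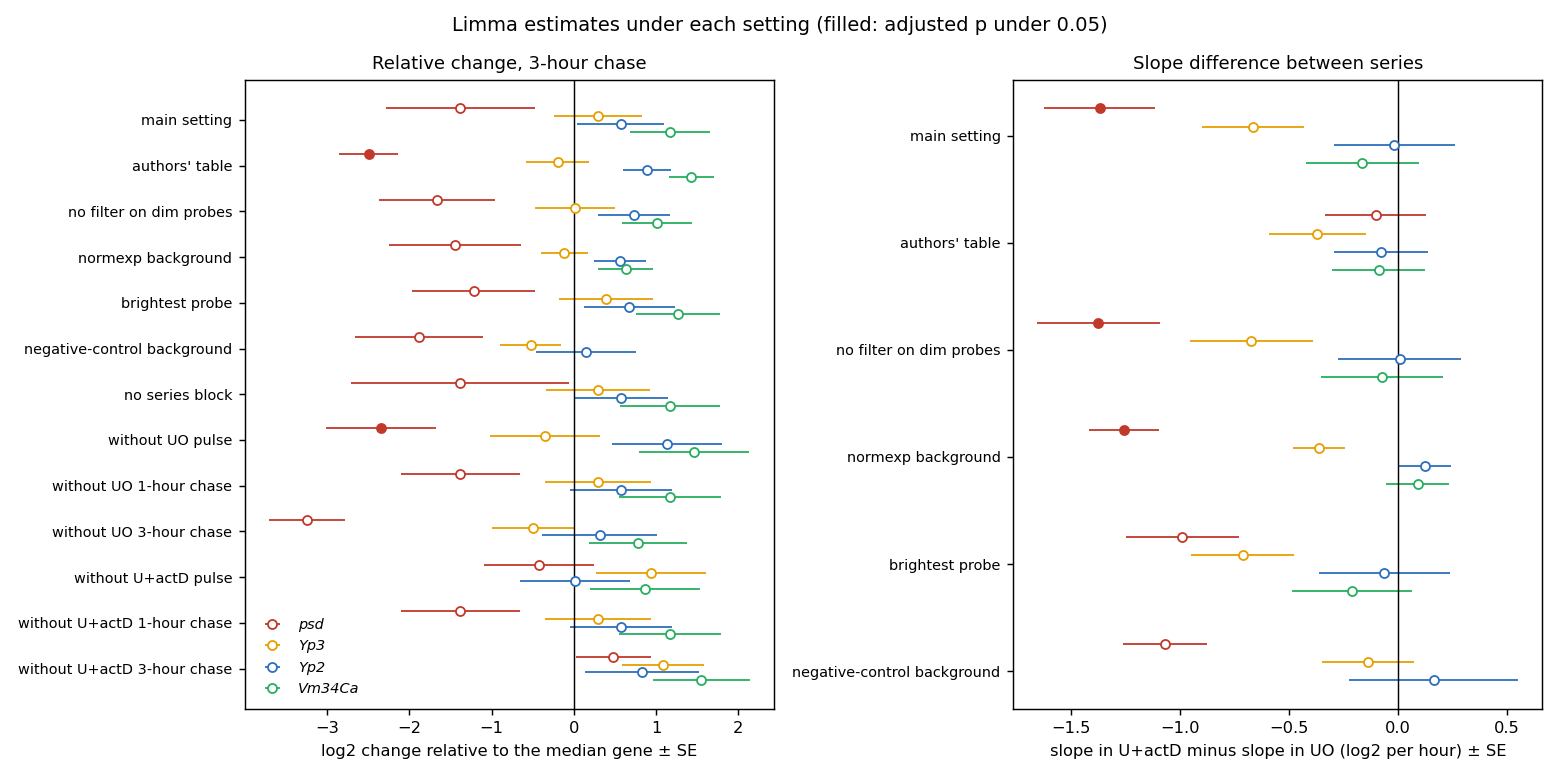
Limma estimates with SE (bars) for 4 members under each setting, for the change at the 3-hour chase relative to the median gene (left, log2) and for the slope in U+actD minus that in UO (right, log2 per hour); filled points have an adjusted p under 0.05. For psd the relative change is called with the authors' table and without the UO pulse array, and the slope difference with scanner signals but not with the table, the brightest probe or a background set by the negative controls.

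Likeness was the root mean square difference of mean-centred log2 signals over the 6 arrays. It therefore includes the gap in level between the series as well as the course over the chase. For psd that gap was wide, with 21676 at the U+actD pulse and 90.8 at the UO pulse. By this measure psd had few genes like it. The nearest were CG8136 (0.27), CG34057 (0.39) and CG8908 (0.42), and 10 genes lay within 0.5. Yp3 had 2033 genes within 0.5, the nearest being Ino80 (0.07), a chromatin remodelling ATPase, CG13005 (0.08) and l(3)80Fg (0.10). Vm34Ca had 1509, led by side-VIII (0.03), brp (0.06), which encodes a protein of the synaptic active zone, and Rab9Fb (0.07), and Yp2 had 1002, led by CG34214 (0.15), CG34328 (0.15) and yellow-f (0.17). The courses of all 4 include values at the threshold, for psd those of 1 probe at both 3-hour chases.

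Other gene lists were set beside the share of all genes above the net threshold. That share was 70.0%, 72.1% and 63.3% in UO and 80.8%, 87.3% and 75.2% in U+actD. Of 22 further genes for the eggshell and for yolk uptake, 5, 6 and 7 were above the net threshold in UO and 12, 15 and 9 in U+actD. The 3 with the highest U+actD pulse signal were Cad99C, a cadherin of follicle cell microvilli, at 21348, 4141 and 944 in U+actD, the chorion gene Cp18, at 2377, 868 and 98.0, and clos (closca), which is needed for the vitelline membrane, at 1637, 473 and 119. In U+actD each read lower at both chases, and Cp18 ended under the threshold. In UO they read 208, 320 and 76.0 (Cad99C), 20, 20 and 198 (Cp18) and 99, 71.5 and 53 (clos), so Cad99C was highest at the 1-hour chase and Cp18 passed the threshold at the 3-hour chase alone. Of the 6 genes of this list that were tested, 5 were lower at the 3-hour chase by limma, where 98.5% of all genes tested were. Their median was -2.13 against -2.99 over all genes. Values under the threshold were set to it, and the threshold itself changed by -1.67 in UO and -1.70 in U+actD. Cp15, at 144, was below it at the U+actD pulse. The smaller median can therefore not be read as slower loss. Among 27 genes of adult male seminal fluid and sperm, a comparison for transcripts of adults that embryos should lack, 4, 5 and 5 were above the threshold in UO and 12, 14 and 7 in U+actD. Their summed net signal was 1510, 1594 and 1053 in UO and 16553, 4179 and 2350 in U+actD, of which Acp26Aa gave 663 and 629 at the UO pulse and 1-hour chase and Acp36DE 7093 at the U+actD pulse. Both were named after their values had been seen. The part of this list in the members' values was not tested. All 3 of these genes that were tested were lower at the 3-hour chase by limma, as were 98.5% of all genes. Of 9 mRNAs that the ovary stores in the egg, such as osk and bcd, 9, 9 and 6 were above the threshold in UO and 7, 9 and 9 in U+actD. Limma called all 9 lower at the 3-hour chase, which is the level of the 98.5% of all genes. Of 6 larval fat body genes 1, 2 and 1 were above the threshold in UO and 1, 5 and 1 in U+actD.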

How the data were processed

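The members and gene lists were chosen with earlier results of these data known. The authors purified tagged RNA, added Agilent spike-ins, labelled it with Cy3 and hybridised Agilent 4x44K arrays, and the deposited scanner files hold foreground and local background intensity per spot. Per the file headers they also give the percent of saturated pixels. The deposited table of the authors gives intensity after a factor per array, with spots left out. It was used as an alternative, and the value table of the series matrix was identical to it. The programs behind these files are not given in the sources used here.

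Probes were named from the platform annotation (14546), the table's names (6231) or the UO files (1084), with current RefSeq symbols, and 10301 without a gene were not used. Both psd probes carry its older names in the table. Arrays were scaled within a series on 5 (UO) or 4 (U+actD) spike-ins, unsaturated, above 2 times the threshold and under 50000. Signals at or below the threshold were then set to it and log2 values averaged over probes of a gene. Limma 3.58.1 (R 4.3.3) fitted series and time on all 6 arrays (2 residual degrees of freedom), with a series by chase hours term for slopes (1), after giving both series equal mean ratios trimmed by 10% at each end. The error is therefore the disagreement of the 2 series and not a spread between replicates, and 6 arrays limit the precision. On the spike-in scale it was shared over genes, with the same SE of 0.71 for all 4 members tested. P-values were adjusted by Benjamini-Hochberg at 0.05. Half-lives came from least squares on ln signal, with an adjusted R2 of at least 0.75. The fit was also run on simulated data with independent normal noise and no values set to a threshold. That run cannot vouch for members near the threshold. Members were all named, up to 3 genes of the other lists by U+actD pulse signal, and 3 like genes per member above the threshold on at least 4 arrays. Python 3.11.15, pandas 2.3.3 and numpy 2.4.6 were used.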

Additional observations from a re-analysis of the deposited data

Results flagged for a closer look

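The difference between U+actD and UO in the slope of psd, -1.37 on the log2 scale per hour (SE 0.25, limma adjusted p = 0.014), stood out because limma's test of the difference itself passed, and the 3 other members tested did not pass it. In U+actD both psd probes were lower at each chase, and in UO at the 3-hour chase 1 was just above the negative control threshold of 50, at 56, and the other below it, at 8. The UO pulse values of 142 and 58 left little room above the threshold for a steeper fall there. The test cannot tell faster loss in U+actD from that limit. The limma slope difference was -1.38 without the filter on dim probes and -1.26 with normexp background, both called. Called steeper in U+actD were 215 of 13309 genes without the filter and 689 of 9820 with normexp. It was -0.99 with the brightest probe, -1.07 with a negative-control background and -0.10 with the authors' table, none of them called (limma adjusted p from 0.096 to 0.93). With the brightest probe 3 of 9820 genes were called steeper in U+actD, and 0 of 10081 with the negative-control background.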

How the results depend on the processing

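No paired analysis was possible because each group has 1 array and the labels give no replicate numbers, and time points were paired by series only, as a term of the model. Against the 99th percentile of the negative controls 3 members stood above it at the U+actD pulse (58.4% of genes) and 0 at the UO 3-hour chase (54.3%). Against the highest negative control 0 did on the UO pulse and 3-hour chase arrays (46.1% and 50.8% of genes). On each U+actD array 1 did (18.5%, 48.0% and 49.5% of genes). By foreground 3 did on the UO 3-hour chase array (67.5% of genes). The count of members lower at the 3-hour chase on the spike-in scale was 8 without the filter, where 13045 of 13309 genes were lower. Yp1, Vm26Ab and Cp36 were then at the threshold at the pulse of both series, so their calls carry no measured loss. That count was 0 without the series block and 0 with 75th percentile scaling. Relative to the median gene it was 1 with the authors' table and 0 to 1 with each array left out, 1 being without the UO pulse array. The count of members with a slope difference was 0 with the authors' table, the brightest probe or the negative-control background, a setting chosen after seeing the data because of the empty UO backgrounds.

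Signs turned as follows, with no adjusted p under 0.05 in limma. With 75th percentile scaling the change at the 3-hour chase was 1.34 for Vm34Ca, 0.75 for Yp2 and 0.47 for Yp3, and at the 1-hour chase 0.21 for Vm34Ca and 0.26 for Yp3. The relative change at the 3-hour chase of Yp3 was -0.19 with the authors' table, -0.12 with normexp and -0.52 with the negative-control background. The relative change at the 1-hour chase was -0.14 for Vm34Ca without the filter, 0.15 and 0.14 for Yp2 and -0.29 and -0.037 for Yp3 with the authors' table and normexp. In the UO scanner files alone the relative change of psd at the 3-hour chase turned from 0.50 to -0.78 with no floor and -0.40 with the negative-control background. The slope difference was 0.091 for Vm34Ca and 0.12 for Yp2 with normexp, and for Yp2 0.0082 without the filter and 0.17 with the negative-control background. With each array left out, the change of Yp3 at the 1-hour chase ran from -2.10 to 0.081. The relative changes at the 3-hour chase then ran from -0.50 to 1.09 for Yp3 and from -3.25 to 0.48 for psd, and at the 1-hour chase from -0.53 to 0.84 for Vm34Ca, -1.45 to 0.18 for Yp2, -0.45 to 0.84 for Yp3 and -1.23 to 0.69 for psd. The cause of these changes was not tested.

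Half-lives moved by over 1.5 times for psd in UO (37.1 minutes with the authors' table, 45.9 with the negative-control background, 46.8 with no floor) and for psd and Yp3 in U+actD with 75th percentile scaling (53.6 and 294 minutes). They also did for Yp2 in UO (124 minutes) and Vm34Ca in UO and U+actD (204 and 139 minutes) with the authors' table, and for Yp3 in UO with the negative-control background (46.2 minutes). The low signal of the UO arrays limits every UO value of the members.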
